A study of Homo sapiens with 3 samples.

Results

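The collagen genes were described in single cells of stem-cell-derived alpha cell cultures: 44 genes whose symbol is COL, a number, A and a number, out of 33538 measured features. Of the 44, 11 encode fibrillar chains, 6 encode chains of type IV collagen, the network collagen of basement membranes, and 27 encode other chains. The cultures came from the human embryonic stem cell line HUES8, driven towards alpha cells, the glucagon-secreting cells of the pancreatic islet, by a published protocol. Clusters were dispersed with the enzyme TrypLE and captured on the 10x Genomics droplet platform, which counts messenger RNA molecules at their 3′ ends by unique molecular identifiers (UMIs). The series has 3 libraries, SC-A replicates 1, 2 and 3, which share 1 cell line and 1 condition with no second genotype, agent or time, so each comparison lies between cells of the same libraries. Nothing in the labels says that the libraries were separate differentiations, and the p-values measure only the spread between these 3 libraries, which may be technical.

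Collagens are secreted proteins made of 3 chains wound into a triple helix, and each gene encodes 1 chain. Fibrillar collagens such as types I and III build the fibres of connective tissue and are made mainly by fibroblasts and related mesenchymal cells. Type IV chains form sheets on which epithelia, endothelia and glia rest. In the mouse islet, much of the type IV network around endocrine cells is supplied by the endothelium and not by the endocrine cells themselves.

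Cells were grouped by 5 genes that are not collagens. LUM/POSTN cells held at least 1 UMI of LUM (lumican) or POSTN (periostin), both secreted partners of collagen fibrils. FABP7 cells held at least 1 UMI of FABP7, a fatty acid binding protein of neural progenitors and glia. TPH1 cells held at least 3 UMIs of TPH1, the enzyme that starts serotonin synthesis in enterochromaffin cells. GCG cells gave at least 5% of their UMIs to GCG, the glucagon gene. Cells that met more than 1 definition were set aside. The LUM/POSTN group had 13, 10 and 96 cells in replicates 1, 2 and 3, the FABP7 group 29, 4 and 32, the TPH1 group 29, 16 and 83, and the GCG group 828, 847 and 887. A further 225, 133 and 287 kept cells met none of the definitions.

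The libraries held 30139788, 31122791 and 30980799 UMIs in 2850, 2576 and 4257 barcodes, of which 1160, 1027 and 1466 passed limits of 1000 detected genes or more and 20% mitochondrial UMIs or less. The median kept cell held 15267, 20721 and 9991.5 UMIs, so replicate 3 was the shallowest. Libraries shared 1, 4 and 2 barcodes in pairs, none of them among kept cells. All 9 genes of a mesenchymal marker list, LUM and POSTN included, were found in LUM/POSTN cells of each library, and endothelial markers summed there to 0, 0 and 1.86 CPM (counts per 1e+06 UMIs). The FABP7 cells held 6, 5 and 6 of 8 neural or glial markers, FABP7 included, with SOX10 and CDH19, which mark glia of the neural crest, at 0 throughout. Mesenchymal markers summed to 9368, 3218 and 8006 CPM in these cells, against 8898, 9293 and 14302 CPM in LUM/POSTN cells. The sums were near each other in replicate 1 only, and lower in FABP7 cells in replicates 2 and 3. In FABP7 cells 4, 5 and 6 of the 9 mesenchymal genes were found, VIM among them in each library. DCN was at 0 throughout and PDGFRA in replicates 1 and 2, while LUM and POSTN were at 0 by definition. The sums were not split by gene, so they do not show that FABP7 cells share the whole list. The list of 7 alpha cell markers, GCG included, summed to 18050, 46907 and 17868 CPM in FABP7 cells and 228382, 235207 and 206317 CPM in GCG cells, and all 7 were found in both groups. The TPH1 cells held 5, 4 and 5 of 5 enterochromaffin markers, TPH1 included. Because these lists hold the genes that define the groups, their levels are in part fixed by the definitions. In the LUM/POSTN group the libraries stood apart on a list of 4 epithelial or ductal genes, at 2981, 8359.6 and 224 CPM in replicates 1, 2 and 3, and SST, a delta cell hormone, lay behind a delta marker sum of 3036 CPM in replicate 1. The median mitochondrial share of a cell's UMIs was 9.23, 9.89 and 9.59% in LUM/POSTN cells, 7.31, 13.1 and 10.1% in FABP7 cells, 15.8, 14.3 and 14.9% in TPH1 cells and 15.0, 14.7 and 15.1% in GCG cells. The part of these marker levels and of the mitochondrial share in the collagen values was not tested.

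The LUM/POSTN cells carried most collagen by far, and the leading chain differed between the groups. Fibrillar chains summed to 5051, 5078 and 6816 CPM in LUM/POSTN cells, 288, 485 and 346 CPM in FABP7 cells, 66.7, 42.0 and 70.6 CPM in TPH1 cells and 70.9, 68.5 and 81.2 CPM in GCG cells. Type IV chains gave another order, at 246, 169 and 234 CPM in LUM/POSTN cells, 126, 53.9 and 234 CPM in FABP7 cells, 159.6, 145 and 117 CPM in TPH1 cells and 19.1, 16.3 and 11.0 CPM in GCG cells. The GCG cells were thus lowest for type IV in every library, while FABP7 cells overlapped both LUM/POSTN and TPH1 cells. The other chains summed to 1322, 1753 and 1473 CPM in LUM/POSTN cells, 178, 364 and 356 CPM in FABP7 cells, 119, 103 and 96.7 CPM in TPH1 cells and 91.5, 91.5 and 91.4 CPM in GCG cells. In all, collagen came to 7381 ± 1008, 810.0 ± 189, 306 ± 33.8 and 180.5 ± 3.77 CPM in LUM/POSTN, FABP7, TPH1 and GCG cells (SD, n = 3 libraries each). Each UMI counts once whatever the length of its transcript. Whether different genes are captured alike was not tested, so shares and ratios between genes describe the UMIs counted.

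**Figure D1:**
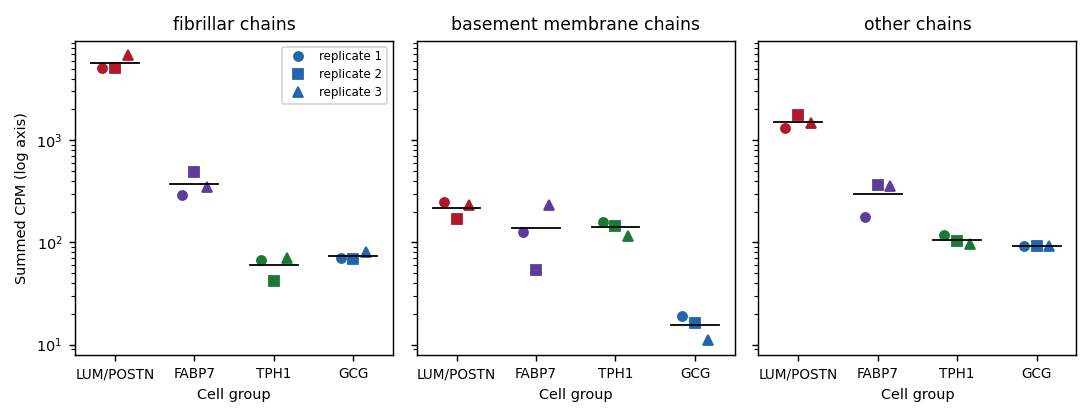
Summed CPM of fibrillar, basement membrane and other collagen chains (log axis) in each library, for LUM/POSTN, FABP7, TPH1 and GCG cells from left to right; each point is a library and each black line the mean of 3. Fibrillar chains averaged 5648 CPM in LUM/POSTN cells and 73.5 CPM in GCG cells, while basement membrane chains averaged 140.4 CPM in TPH1 cells and 15.5 CPM in GCG cells.

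The make-up of the collagen differed as much as its amount. Type I and type III chains held 70.5, 66.8 and 74.9% of collagen UMIs in LUM/POSTN cells, against 1.28, 1.04 and 6.91% in GCG cells. Type IV chains held 46.2, 50 and 41.1% of collagen UMIs in TPH1 cells, against 10.5, 9.26 and 6.01% in GCG cells. COL1A1 led in LUM/POSTN cells of every library and COL4A2 led in TPH1 cells. COL27A1, COL6A1 and COL6A2 together made 68.8, 66.5 and 69.4% of the collagen UMIs of GCG cells. The same chains made 54.9, 57.7 and 36.2% in kept cells that met none of the definitions. In FABP7 cells COL11A1 led in replicates 1 and 3; in replicate 2, with 4 cells, 59 of the group's 67 collagen UMIs came from 1 cell led by COL1A2. Of the 44 members, 31 had their highest mean in LUM/POSTN cells, 7 in FABP7 cells, 0 in TPH1 cells and 5 in GCG cells. The remaining member, COL6A5, had no UMI in any kept cell. This ranking covers the 4 groups only and has no share over all genes beside it. The FABP7 means include the sum of 4 cells, and COL7A1 counted there on 1 UMI. For COL27A1 and COL11A2, kept cells of no definition had means of 65.3 and 1.08 CPM, above the 63.7 and 0.713 CPM of GCG cells.

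**Figure D2:**
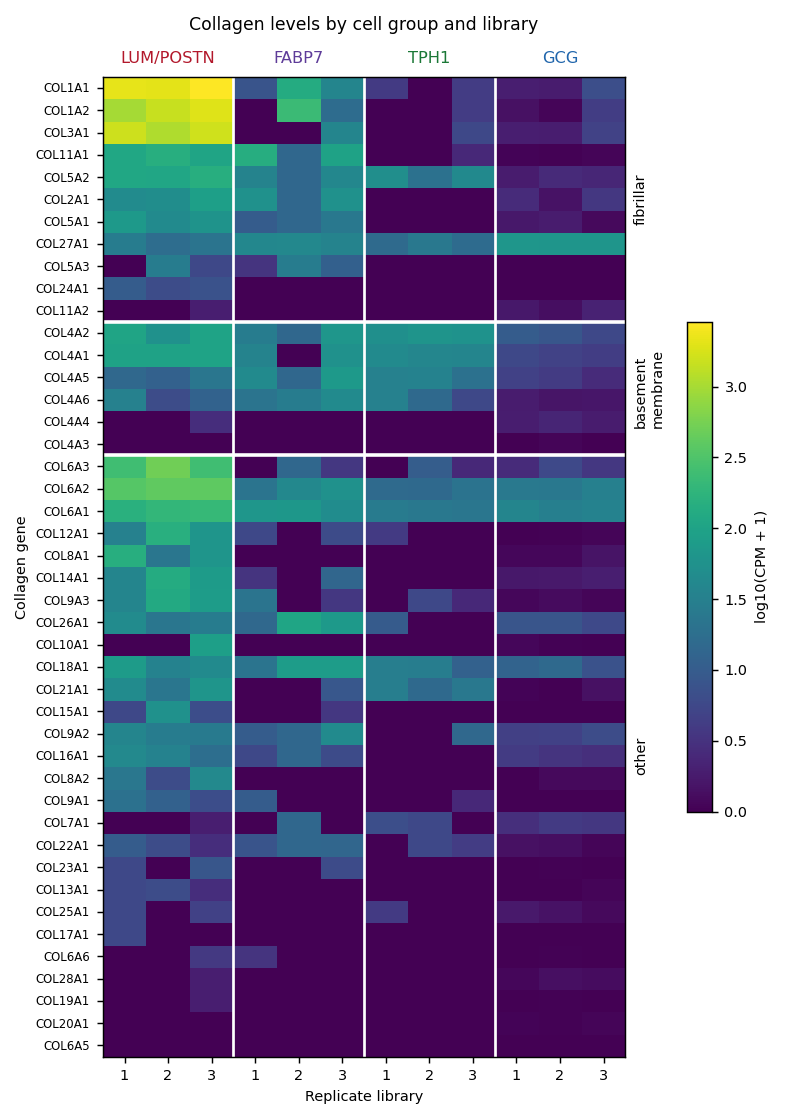
Levels of the 44 collagen genes as log10(CPM + 1) (colour), with genes in rows by class and a column for each library within LUM/POSTN, FABP7, TPH1 and GCG cells. Brighter colour is a higher level. COL1A1, COL1A2 and COL3A1 are brightest in LUM/POSTN columns, at means of 2360.2, 1460.2 and 1424 CPM, and COL27A1 is brightest in GCG columns, at a mean of 63.7 CPM.

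Differences were tested with edgeR's quasi-likelihood test on counts summed per library and cell group, with the library as a block and Benjamini-Hochberg adjustment over 8397 genes. Of the 44 members, 24 passed the filter on low counts, 8 of them fibrillar, 4 type IV and 12 other. A member with few cells behind it passes mainly where it is high in some group, so the counts below describe these 24 and are no evidence by themselves. The FABP7 sum of replicate 2, from 4 cells, was left out of the fit, so FABP7 comparisons rest on 2 FABP7 sums. The fit centres on the typical gene through TMM scaling factors. Without them the median log2 difference of all genes moved from -0.07 to 0.18 for LUM/POSTN against GCG cells, from -0.10 to 0.33 for FABP7 against GCG cells, from -0.03 to 0.53 for TPH1 against GCG cells and from -0.01 to -0.20 for LUM/POSTN against FABP7 cells. Fold changes below are relative to that typical gene.

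In LUM/POSTN cells against GCG cells, 23 of the 24 tested members were higher and 1 was lower at an adjusted p of 0.05, and the values of the groups overlapped for none of the 24. Over all genes tested, 25.9% were higher and 26.9% lower, and 60.7% had values that did not overlap. The median log2 difference was 5.70 over the members and -0.07 over all genes. The higher members were 7 of 8 fibrillar, 4 of 4 type IV and 12 of 12 other chains.

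COL1A1 and COL1A2 encode the 2 chains of type I collagen. COL1A1 (chr17:50183289-50201632, minus strand, in the GENCODE annotation of GRCh38, as for the genes below) stood at 2119.7, 2097 and 2864 CPM in LUM/POSTN cells of replicates 1, 2 and 3, against 0.953, 0.808 and 5.67 CPM in GCG cells. The groups lay far apart, with a log2 difference of 10.09 ± 0.45 (SE, n = 3 libraries, edgeR adjusted p = 3.35e-09). COL1A2 (chr7:94394561-94431232, plus strand) had 985, 1463 and 1933 CPM in LUM/POSTN cells, against 0.409, 0.108 and 3.2 CPM in GCG cells, a log2 difference of 10.47 ± 0.56 (edgeR adjusted p = 1.36e-08). The collagen of type I is built from more of the first chain than of the second, and the ratio of COL1A1 to COL1A2 UMIs was 2.15, 1.43 and 1.48 in LUM/POSTN cells. In GCG cells of replicate 3, a single cell held 37 of 55 COL1A1 UMIs and 18 of 31 COL1A2 UMIs, and 1.11% of its own UMIs were collagen.

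COL3A1 (chr2:188974320-189012746, plus strand), the chain of type III collagen, which forms the fine fibres of soft tissue, had 1564, 1119 and 1589 CPM in LUM/POSTN cells, against 0.953, 0.916 and 3.82 CPM in GCG cells. Its log2 difference was 9.58 ± 0.50 (edgeR adjusted p = 1.07e-08). It neighbours COL5A2 (chr2:189031896-189225312, minus strand), whose chain of type V collagen helps to start fibrils and limit their width. COL5A2 had 114, 109 and 147 CPM in LUM/POSTN cells, against 0.817, 1.62 and 1.34 CPM in GCG cells, a log2 difference of 6.34 ± 0.31 (edgeR adjusted p = 7.52e-09). Both genes were high in every LUM/POSTN library. COL11A1 (chr1:102876467-103108872, minus strand), a chain of type XI collagen of cartilage, had 114, 147 and 103 CPM in LUM/POSTN cells, against 0.0681, 0.0539 and 0.103 CPM in GCG cells. Only 3 UMIs lay behind the GCG values, 1 in each library, and the ratio of the pooled counts was 1581 with a 95% counting interval of 531 to 7744.

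COL1A1 was found in 69.2, 90 and 76.0% of LUM/POSTN cells, where the exact (Clopper-Pearson) 95% limits ran between 38.6 and 90.9%, between 55.5 and 99.7% and between 66.3 and 84.2%. In GCG cells, an endocrine group set beside them as the background level, the share was 1.45, 1.77 and 2.14%, and the source of those UMIs was not tested. Median depths were 16431, 15588 and 10345.5 UMIs in LUM/POSTN cells and 16449, 21669 and 10455 UMIs in GCG cells, close in replicates 1 and 3, with the LUM/POSTN cells shallower in replicate 2. Thinned to 5000 UMIs per cell, the shares were 66.7, 90 and 67.8% in LUM/POSTN cells and 0.253, 0.394 and 1.32% in GCG cells. These intervals cover counting error only.

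COL27A1 went the other way: it was the 1 tested member lower in LUM/POSTN cells, and the leading collagen of GCG cells. It encodes a fibrillar chain of thin fibrils, described mainly in cartilage, and lies at chr9:114155560-114312511 on the plus strand. Its level was 27.4, 16.4 and 20.5 CPM in LUM/POSTN cells, against 64.7, 63.3 and 63.0 CPM in GCG cells, a log2 difference of -1.80 ± 0.23 (edgeR adjusted p = 3.39e-05). The GCG values were nearly the same in the 3 libraries, and no LUM/POSTN value reached them. The level was not confined to cells over the GCG limit: kept cells that met none of the definitions averaged 65.3 ± 6.04 CPM (SD, n = 3 libraries). Those cells were not free of alpha cell markers. All 7 of the list were found in each library, summing to 76911, 69926 and 74663 CPM, with GCG itself at 18230.5, 18867 and 20625 CPM. COL27A1 made 0.542, 0.323 and 0.301% of fibrillar UMIs in LUM/POSTN cells and 91.3, 92.4 and 77.6% in GCG cells. It was found in 61.6, 64.1 and 47.7% of GCG cells, or 29, 28.1 and 30.2% once thinned to 5000 UMIs.

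**Figure D3:**
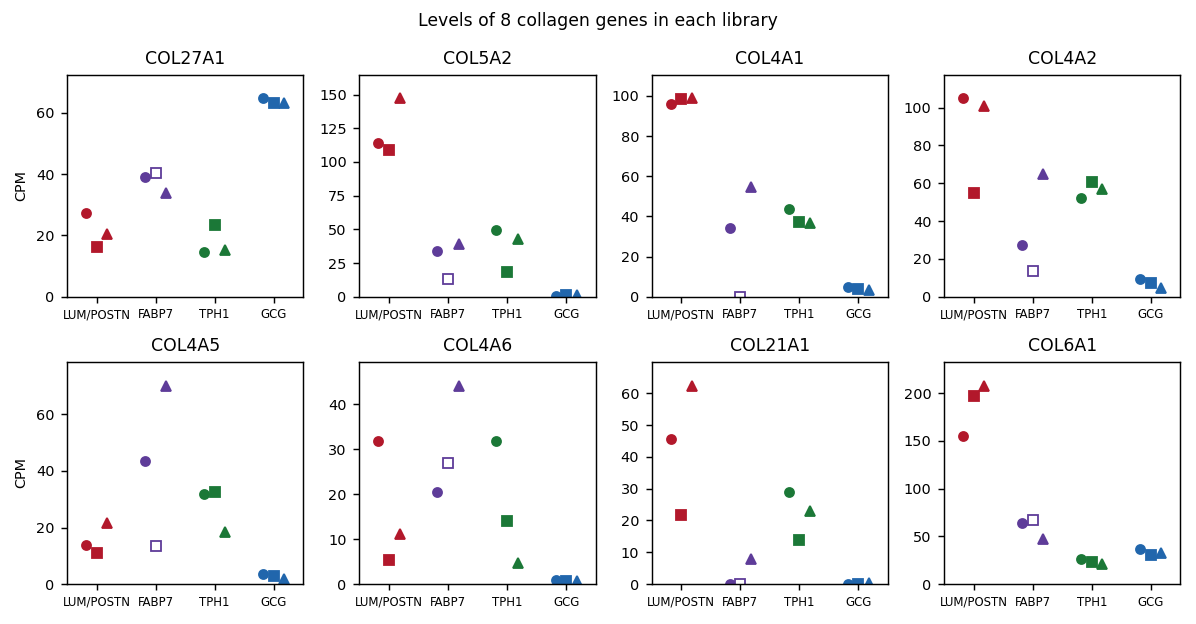
CPM of 8 collagen genes in LUM/POSTN, FABP7, TPH1 and GCG cells, left to right in each panel; circles, squares and triangles are replicates 1, 2 and 3, and open symbols mark the FABP7 sum of 4 cells. COL27A1 lies between 63.0 and 64.7 CPM in GCG cells, above every value of the other groups shown, and COL4A2 lies between 52.2 and 60.7 CPM in TPH1 cells, above 4.64 to 9.13 CPM in GCG cells. Kept cells that met none of the definitions, not shown, averaged 65.3 CPM of COL27A1.

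The type IV chains are shown with the sequence of their shared starts, since the genes sit in head-to-head pairs and all 4 tested chains were higher than in GCG cells in each of the other groups. COL4A1 and COL4A2, the most common chains of basement membranes, are read in opposite directions at chr13:110148963-110307233 and chr13:110305812-110513209, with 126 bases between their RefSeq starts. The gene intervals of the annotation used for positions overlap at these 5′ ends, while the counted reads come from the 3′ ends. The pair COL4A6 (chrX:108155607-108439497, minus strand) and COL4A5 (chrX:108439844-108697545, plus strand) has 379 bases between starts, and COL4A4 and COL4A3 have 418. The windows below are from RefSeq on GRCh38.p14, plus strand, 5′ to 3′, and capitals mark each match to the motif CCAAT, to the motif GGGCGG or to the motif TATAAA on either strand. The gap between COL4A1 and COL4A2 is chr13:110307158-110307283, and the stretch before the COL4A5 start is chrX:108439588-108439837. COL27A1 is set beside them, at chr9:114155287-114155536, as the chain with the opposite order of levels.
COL4A1 to COL4A2: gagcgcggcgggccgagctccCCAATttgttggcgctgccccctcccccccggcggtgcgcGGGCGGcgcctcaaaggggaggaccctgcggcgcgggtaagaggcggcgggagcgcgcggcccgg
COL4A5 upstream: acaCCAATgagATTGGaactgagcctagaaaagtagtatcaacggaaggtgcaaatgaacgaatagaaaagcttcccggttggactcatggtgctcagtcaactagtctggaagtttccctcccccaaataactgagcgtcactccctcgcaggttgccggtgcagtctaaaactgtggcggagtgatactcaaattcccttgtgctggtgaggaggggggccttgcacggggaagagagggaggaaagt
COL27A1 upstream: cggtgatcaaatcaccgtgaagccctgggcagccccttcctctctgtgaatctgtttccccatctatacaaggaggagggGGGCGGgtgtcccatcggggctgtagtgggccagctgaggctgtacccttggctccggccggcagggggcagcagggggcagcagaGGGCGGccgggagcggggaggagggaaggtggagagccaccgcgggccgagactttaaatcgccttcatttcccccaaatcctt

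The COL4A1 to COL4A2 gap held 1 CCAAT and 1 GGGCGG, the COL4A5 window a CCAAT on each strand, and the COL27A1 window 2 GGGCGG and no CCAAT. None of these windows held TATAAA. Among 35116 RefSeq windows cut to 126 bases, 21.1% held CCAAT, 34.6% GGGCGG and 5.87% TATAAA, and at 250 bases the shares were 32.0, 42.6 and 10.7%. The shared gap was 80.2% G or C, against a median of 60.3% over all windows of its length. A match describes the letters and is no evidence of a bound factor.

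COL4A1 had 95.7, 98.3 and 98.8 CPM in LUM/POSTN cells, against 4.63, 3.88 and 3.30 CPM in GCG cells, a log2 difference of 4.39 ± 0.26 (edgeR adjusted p = 3.69e-08). COL4A2 had 105, 54.6 and 101 CPM in LUM/POSTN cells, against 9.13, 7.44 and 4.64 CPM in GCG cells, a log2 difference of 3.42 ± 0.35 (edgeR adjusted p = 4.23e-06). Both chains of the pair were higher in every LUM/POSTN library. The X-linked pair, chains of the kidney and of smooth muscle basement membranes among others, was lower in level. COL4A5 had 13.7, 10.9 and 21.4 CPM in LUM/POSTN cells, against 3.68, 3.02 and 1.65 CPM in GCG cells, a log2 difference of 2.47 ± 0.53 (edgeR adjusted p = 0.00159). Without replicate 3, which holds most LUM/POSTN cells, the COL4A5 difference was 1.62 with an edgeR adjusted p of 0.197. COL4A6 had 31.9, 5.46 and 11.2 CPM in LUM/POSTN cells, against 0.817, 0.593 and 0.619 CPM in GCG cells, a log2 difference of 4.16 ± 0.85 (edgeR adjusted p = 0.00116). COL4A3 and COL4A4, the other kidney chains, were not tested, with 2 and 51 UMIs over all kept cells.

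Type VI collagen, a beaded filament around cells, was the leading family of the remaining chains, and its chain COL6A3 set the groups apart. COL6A1 (chr21:45981737-46005050, plus strand) had 155, 197 and 208 CPM in LUM/POSTN cells, against 36.5, 30.5 and 33.0 CPM in GCG cells, a log2 difference of 2.29 ± 0.18 (edgeR adjusted p = 5.36e-07). COL6A2 (chr21:46098097-46132849, plus strand) had 351, 404 and 392 CPM in LUM/POSTN cells, against 23.7, 23.4 and 31.4 CPM in GCG cells, a log2 difference of 3.63 ± 0.19 (edgeR adjusted p = 1.32e-08). The ratio of COL6A1 to COL6A2 UMIs was 0.442, 0.486 and 0.530 in LUM/POSTN cells and 1.54, 1.30 and 1.05 in GCG cells, with no overlap. COL6A3 (chr2:237324003-237414375, minus strand), the large chain needed to assemble the filament, had 246, 502 and 251 CPM in LUM/POSTN cells, against 1.70, 4.74 and 2.58 CPM in GCG cells, a log2 difference of 6.58 ± 0.23 (edgeR adjusted p = 8.04e-10). Per COL6A2 UMI there were 0.701, 1.24 and 0.639 COL6A3 UMIs in LUM/POSTN cells, against 0.0718, 0.202 and 0.0822 in GCG cells. The GCG cells therefore held UMIs of the first and second type VI chains with few of the third.

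COL21A1 (chr6:56056590-56394094, minus strand), a fibril-associated chain, had 45.6, 21.8 and 62.4 CPM in LUM/POSTN cells, against 0.0681, 0 and 0.413 CPM in GCG cells, a log2 difference of 7.83 ± 0.75 (edgeR adjusted p = 2.59e-06). COL18A1 (chr21:45405137-45513720, plus strand), a basement membrane proteoglycan whose end piece is endostatin, had 77.5, 32.8 and 44.7 CPM in LUM/POSTN cells, against 11.5, 14.0 and 6.5 CPM in GCG cells, a log2 difference of 2.11 ± 0.47 (edgeR adjusted p = 0.00203). COL26A1 (chr7:101362820-101559024, plus strand), a short collagen first described in mouse testis and ovary, had 45.6, 21.8 and 27 CPM in LUM/POSTN cells, against 7.15, 7.22 and 4.85 CPM in GCG cells, a log2 difference of 2.00 ± 0.62 (edgeR adjusted p = 0.0159). All of these were higher in each library, but without replicate 3 the COL26A1 difference was 1.92 with an edgeR adjusted p of 0.0591.

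The LUM/POSTN cells were not uniform. Collagen made a median of 0.782, 0.721 and 0.825% of a cell's UMIs in LUM/POSTN cells, with a highest cell of 2.91% in replicate 3, against medians of 0.0168, 0.0165 and 0.0155% in GCG cells. Cells with neither a type I nor a type III UMI numbered 3, 0 and 9 of the LUM/POSTN cells. Split by the genes that define the group, which makes this a description only, the 6, 6 and 56 cells with both LUM and POSTN held 3712, 2736 and 4639 CPM of COL1A1. The 3, 2 and 17 cells with POSTN alone held 763, 2385 and 793 CPM, and the 4, 2 and 23 cells with LUM alone 591, 912 and 653 CPM. In replicate 2 the POSTN-only value, from 2 cells, lay close to that of the double-positive cells. In replicate 2, 1 cell held 29.7% of the group's collagen UMIs, and the summed level was 5538 CPM without it against 7000.0 CPM with it. COL10A1, the chain of hypertrophic cartilage, is outside the naming rule and was picked after its values were seen. It had 89.5 CPM in LUM/POSTN cells of replicate 3 and 0 in those of the other libraries, and 72 of its 96 UMIs there came from 1 cell.

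**Figure D4:**
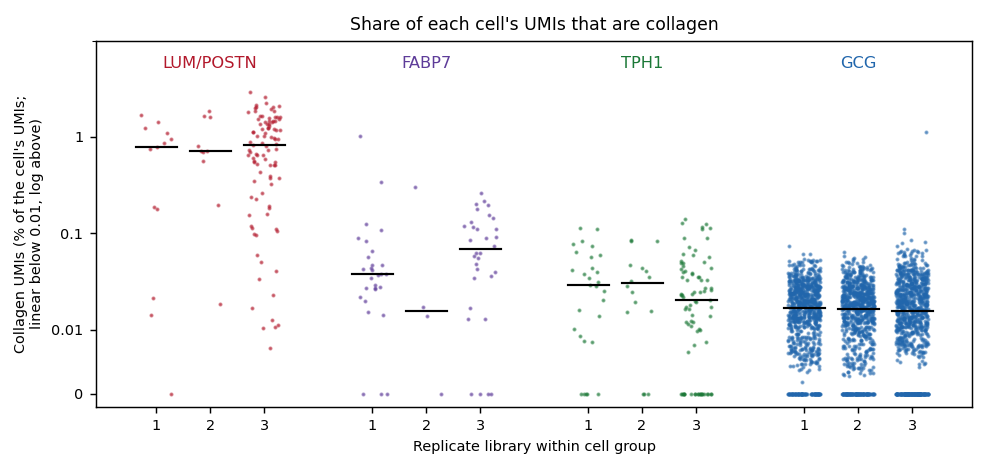
Collagen as a percentage of each cell's UMIs (symmetric log axis) in LUM/POSTN, FABP7, TPH1 and GCG cells of replicates 1, 2 and 3; each point is a cell and each black line a median. The LUM/POSTN medians lie between 0.721 and 0.825%, and the GCG medians between 0.0155 and 0.0168%, with 1 GCG cell of replicate 3 at 1.11%.

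In FABP7 cells against GCG cells, 17 of the 24 tested members were higher, 1 was lower and 6 were not called. Over all genes 21.3% were higher and 22.3% lower. The median log2 difference was 2.65 over the members, and -0.10 over all genes. It was 2.83 with COL8A1, which had no UMI in the 2 FABP7 sums, set to the highest value that a floor of 3 UMIs over those sums allows. Values did not overlap for 19 of the 24 members over the libraries fitted, close to the share of 73.9% over all genes with only 2 FABP7 sums. Without replicate 3 a single FABP7 sum was left, which was assumed to vary like the other groups. Some of the differences themselves were also smaller there, as given below for COL4A2, COL18A1 and COL26A1.

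COL11A1 stood out among the fibrillar chains of FABP7 cells, at 142, 13.5 and 96.1 CPM, against 0.0681, 0.0539 and 0.103 CPM in GCG cells. The pooled ratio over the 2 FABP7 sums was 1724, with a 95% counting interval of 573 to 8500.3. COL5A2 had 34.3, 13.5 and 39.0 CPM in FABP7 cells, against 0.817, 1.62 and 1.34 CPM in GCG cells, a log2 difference of 4.36 ± 0.46 (edgeR adjusted p = 1.01e-05). Type I collagen was another matter: COL1A1 had 6.86, 135 and 36.4 CPM in FABP7 cells, against 0.953, 0.808 and 5.67 CPM in GCG cells, and its UMIs came from 1, 1 and 4 FABP7 cells. Its log2 difference was 2.66 ± 0.66 (edgeR adjusted p = 0.00561), or 2.42 with an adjusted p of 0.0689 without replicate 3. COL1A2, at 0, 229 and 15.6 CPM in FABP7 cells, was not called (log2 difference 2.26 ± 1.22, edgeR adjusted p = 0.148). That call depended on the cells: COL1A2 was called higher at 4.17 with overlapping cells kept, 3.53 at 3 UMIs of the defining genes or more, 5.30 at a 30% mitochondrial limit and 4.70 with the sum of 4 cells included (edgeR adjusted p = 0.000898, 0.00301, 0.000999 and 0.00934), and at 2.16 with no filter on low counts (edgeR adjusted p = 0.0111). COL3A1 was found in FABP7 cells of replicate 3 alone, at 36.4 CPM, and its call (log2 difference 2.63 ± 0.82, edgeR adjusted p = 0.0186) rests on that library. Without it the fitted difference was -5.42, from 1 FABP7 sum with 0 COL3A1 UMIs. There 3 UMIs come to 6.86 CPM, above the GCG levels, so the sign cannot show a lower level. COL27A1 was again lower, at 38.9, 40.4 and 33.8 CPM in FABP7 cells against 64.7, 63.3 and 63.0 CPM in GCG cells, with a log2 difference of -1.22 ± 0.25 (edgeR adjusted p = 0.00146). Without replicate 1 the adjusted p was 0.0880.

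All 4 tested type IV chains were higher in FABP7 cells. COL4A5 was the highest of them in replicates 1 and 3. COL4A5 had 43.5, 13.5 and 70.2 CPM in FABP7 cells, against 3.68, 3.02 and 1.65 CPM in GCG cells, a log2 difference of 3.95 ± 0.50 (edgeR adjusted p = 4.57e-05). COL4A6 had 20.6, 26.9 and 44.2 CPM in FABP7 cells, against 0.817, 0.593 and 0.619 CPM in GCG cells, a log2 difference of 5.06 ± 0.87 (edgeR adjusted p = 0.00048). COL4A1 had 34.3, 0 and 54.6 CPM in FABP7 cells and a log2 difference from GCG cells of 3.04 ± 0.35 (edgeR adjusted p = 2.03e-05), and the 0 belongs to the sum of 4 cells outside the fit. COL4A2 had 27.5, 13.5 and 65.0 CPM in FABP7 cells and a log2 difference from GCG cells of 2.21 ± 0.45 (edgeR adjusted p = 0.00172). Without replicate 3 COL4A2 and COL4A6 lost their calls, at log2 differences of 1.08 and 3.76.

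The type VI chains were not called in FABP7 cells, but for COL6A1 this depended on the scaling. COL6A1 had 64.1, 67.3 and 46.8 CPM in FABP7 cells, against 36.5, 30.5 and 33.0 CPM in GCG cells, without overlap. In FABP7 cells of replicate 1, however, 1 cell of 2547 UMIs held 14 of the 28 COL6A1 UMIs. Neither the overlap nor the fit was tested without that cell. The COL6A1 log2 difference was 0.30 ± 0.25 (edgeR adjusted p = 0.357), and without TMM factors COL6A1 was called at 0.72 (edgeR adjusted p = 0.0343). COL6A2 gave 0.06 ± 0.30 (edgeR adjusted p = 0.907). COL6A3 rested on 1 UMI in the 2 sums. COL18A1 had 20.6, 80.8 and 80.6 CPM in FABP7 cells, against 11.5, 14.0 and 6.5 CPM in GCG cells (log2 difference 1.98 ± 0.55, edgeR adjusted p = 0.0106), and COL26A1 had 13.7, 108 and 72.8 CPM, against 7.15, 7.22 and 4.85 CPM in GCG cells (2.31 ± 0.68, edgeR adjusted p = 0.0139). Both lost their calls without replicate 3, at 0.17 and 0.19. COL21A1, with 3 UMIs in the 2 FABP7 sums, gave a pooled ratio of 31.3 with a counting interval of 4.87 to 161. Its fitted difference (3.78 ± 1.44, edgeR adjusted p = 0.0486) turned to -1.65 without replicate 3, where the FABP7 sum left held 0 COL21A1 UMIs. Proliferation markers summed to 574, 251 and 403 CPM in LUM/POSTN cells and 842, 162 and 192 CPM in FABP7 cells, against 0.749, 12.8 and 0.929 CPM in GCG cells, and their part in these values was not tested.

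In TPH1 cells against GCG cells, 6 of the 24 tested members were higher, 3 were lower and 15 were not called. Over all genes 5.29% were higher and 6.29% lower. The median log2 difference was -0.19 over the members, and -0.03 over all genes. It was 1.29 with the 5 members that had no UMI in TPH1 cells set to the highest value that a floor of 3 UMIs over the group allows. The higher members were the 4 tested type IV chains, COL5A2 and COL21A1. Of the 9 mesenchymal markers, 1 was found in TPH1 cells of each library, with DCN and PDGFRA at 0. LUM and POSTN were at 0 there by definition. The 0, 1 and 11 cells that met both the LUM/POSTN and TPH1 definitions had been set aside.

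COL4A2 had 52.2, 60.7 and 56.8 CPM in TPH1 cells, against 9.13, 7.44 and 4.64 CPM in GCG cells, a log2 difference of 2.41 ± 0.37 (edgeR adjusted p = 0.000757). COL4A1 had 43.5, 37.4 and 36.9 CPM in TPH1 cells, against 4.63, 3.88 and 3.30 CPM in GCG cells, a log2 difference of 2.75 ± 0.30 (edgeR adjusted p = 5.27e-05). The 2 chains moved together. The ratio of COL4A1 to COL4A2 UMIs was 0.833, 0.615 and 0.649 in TPH1 cells and 0.507, 0.522 and 0.711 in GCG cells. Its 95% counting interval included 1 in each TPH1 library (0.391 to 1.75, 0.221 to 1.60 and 0.371 to 1.11). The same held in GCG cells of replicate 3 (0.437 to 1.14), so the order of the chains is not settled there. COL4A5 had 31.9, 32.7 and 18.4 CPM in TPH1 cells, against 3.68, 3.02 and 1.65 CPM in GCG cells, a log2 difference of 2.66 ± 0.49 (edgeR adjusted p = 0.00266). COL4A6 had 31.9, 14.0 and 4.61 CPM in TPH1 cells, against 0.817, 0.593 and 0.619 CPM in GCG cells, a log2 difference of 3.82 ± 0.84 (edgeR adjusted p = 0.00903) that without replicate 1 was 3.05 with an adjusted p of 0.229. A COL4A2 UMI was found in 34.5, 37.5 and 27.7% of TPH1 cells (exact 95% intervals 17.9 to 54.3%, 15.2 to 64.6% and 18.4 to 38.6%), against 14.3, 13.7 and 4.62% of GCG cells. Thinned to 5000 UMIs the shares were 18.5, 21.4 and 24.6% in TPH1 cells and 4.8, 2.49 and 2.52% in GCG cells.

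COL5A2 had 49.3, 18.7 and 43.0 CPM in TPH1 cells, against 0.817, 1.62 and 1.34 CPM in GCG cells, a log2 difference of 4.35 ± 0.38 (edgeR adjusted p = 1.12e-05). Its neighbour COL3A1 had 0, 0 and 4.61 CPM in TPH1 cells, against 0.953, 0.916 and 3.82 CPM in GCG cells, and was not called (-0.27 ± 1.26, edgeR adjusted p = 0.944). COL21A1 had 29, 14.0 and 23.0 CPM in TPH1 cells, against 0.0681, 0 and 0.413 CPM in GCG cells, a log2 difference of 6.55 ± 0.79 (edgeR adjusted p = 0.000118). Both COL5A2 and COL21A1 were thus present in every TPH1 library and near 0 in GCG cells. COL1A1, at 2.90, 0 and 3.07 CPM in TPH1 cells, overlapped the GCG cells and was not called (-0.55 ± 1.06, edgeR adjusted p = 0.836). COL27A1 was lower, at 14.5, 23.4 and 15.4 CPM in TPH1 cells against 64.7, 63.3 and 63.0 CPM in GCG cells, with a log2 difference of -2.46 ± 0.24 (edgeR adjusted p = 2.6e-05), or -1.90 without TMM factors. COL6A1 had 26.1, 23.4 and 21.5 CPM in TPH1 cells, against 36.5, 30.5 and 33.0 CPM in GCG cells, and COL6A2 had 14.5, 14.0 and 20 CPM, against 23.7, 23.4 and 31.4 CPM in GCG cells. Their log2 differences were -1.06 ± 0.26 and -1.19 ± 0.31 (edgeR adjusted p = 0.0171 and 0.0229), but without TMM factors they were -0.50 and -0.65, with adjusted p of 0.157 and 0.120. Both calls also ended without replicate 1 and without replicate 3, which left COL27A1 as the 1 member lower.

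In LUM/POSTN cells against FABP7 cells, 12 of the 24 tested members were higher, 0 were lower and 12 were not called by edgeR. DESeq2 also called 0 lower, and by either tool COL4A5 was the 1 member lower at an unadjusted p under 0.05. Over all genes 2.69% were higher and 1.46% lower, and the median log2 difference was 2.00 over the members and -0.01 over all genes. Of the 12, 6 were chains of types I, III and VI, and the others were COL5A2, COL4A1, COL12A1, COL14A1, COL21A1 and COL8A1. COL1A1 differed by 7.44 ± 0.55, COL1A2 by 8.20 ± 0.75 and COL3A1 by 6.95 ± 0.62 on the log2 scale (edgeR adjusted p = 5.93e-06, 3e-05 and 2.4e-05). COL6A1 differed by 1.99 ± 0.25 and COL6A2 by 3.58 ± 0.29 (edgeR adjusted p = 0.000637 and 1.33e-05). COL6A3 rested on 1 FABP7 UMI, with a pooled ratio of 231 and a counting interval of 41.3 to 9151. COL8A1, a network chain outside the naming rule and chosen after its values were seen, had 146, 21.8 and 63.4 CPM in LUM/POSTN cells and no UMI in the FABP7 sums, and was at least 19.3-fold higher against a floor of 3 UMIs over the FABP7 sums.

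Not every chain separated these groups. COL11A1 gave a log2 difference of 0.10 ± 0.27 (edgeR adjusted p = 0.914) and COL18A1 one of 0.13 ± 0.57 (edgeR adjusted p = 0.957), with overlapping values. COL4A5 had 13.7, 10.9 and 21.4 CPM in LUM/POSTN cells, against 43.5, 13.5 and 70.2 CPM in FABP7 cells, and was not called at -1.47 ± 0.54 (edgeR adjusted p = 0.155). COL4A1 was called higher in LUM/POSTN cells at 1.35 ± 0.32 (edgeR adjusted p = 0.0298), COL5A2 at 1.98 ± 0.36 (edgeR adjusted p = 0.00691) and COL21A1 at 4.06 ± 0.93 (edgeR adjusted p = 0.0271), while COL4A2 was not, at 1.22 ± 0.43 (edgeR adjusted p = 0.143). The calls of COL4A1, COL5A2 and COL21A1 ended without replicate 1 and again without replicate 3, each of which leaves a single FABP7 sum. They also ended when thinned to 5000 UMIs (edgeR adjusted p = 0.302, 0.0809 and 0.116). The COL4A1 call further ended with only these groups fitted, with overlapping cells kept and at 3 UMIs of the defining genes or more (edgeR adjusted p = 0.108, 0.339 and 0.156). Cells that met the LUM/POSTN and FABP7 definitions, which were set aside, numbered 6, 4 and 35. The 6, 3 and 32 of them that met no further definition had COL1A1 at 8.33, 9.84 and 190.0 CPM and COL11A1 at 83.3, 217 and 134 CPM. By COL1A1 they lay far below the LUM/POSTN cells.

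**Figure D5:**
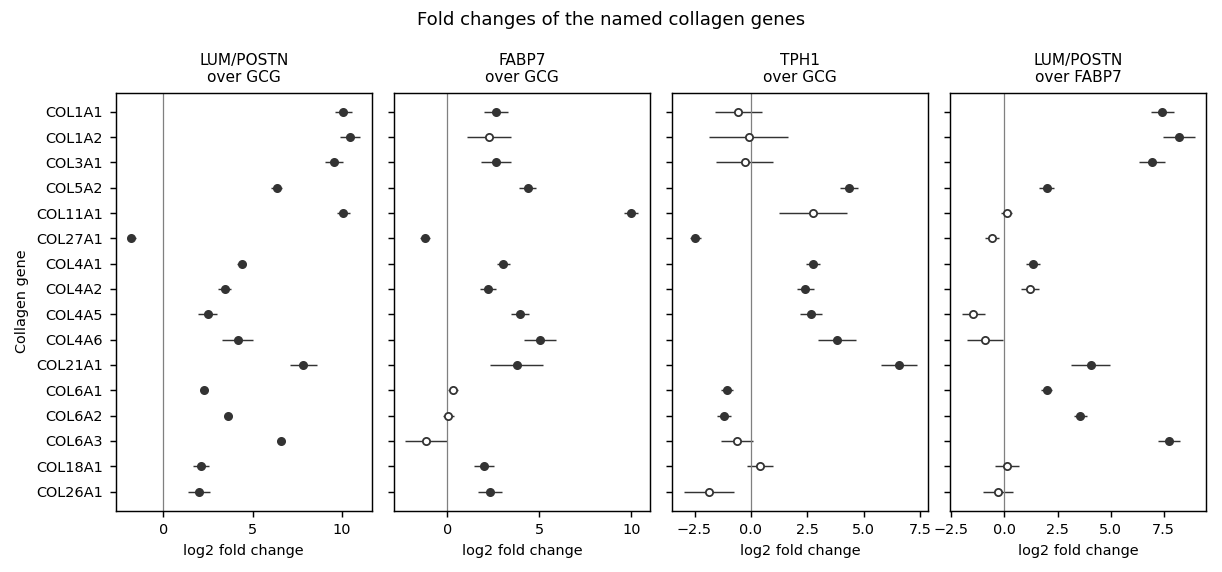
Log2 fold changes with SE (bars) of 16 collagen genes in LUM/POSTN against GCG, FABP7 against GCG, TPH1 against GCG and LUM/POSTN against FABP7 cells; filled symbols passed an adjusted p of 0.05. COL27A1 lies at -1.80, -1.22 and -2.46 in the comparisons with GCG cells, and the type IV chains lie to the right of 0 in all of these.

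Genes that work with collagens were followed through 5 lists of 88 genes, 59 of them tested. In LUM/POSTN cells against GCG cells 42 were higher and 5 lower, beside 25.9% and 26.9% of all genes. In FABP7 cells 20 were higher and 9 lower, beside 21.3% and 22.3% of all genes. In TPH1 cells 3 were higher and 6 lower, near the 5.29% and 6.29% of all genes. In LUM/POSTN against FABP7 cells 23 were higher and 0 lower, beside 2.69% and 1.46%. In this last comparison DESeq2 also called 0 lower, and DDR1 and LOXL4 were the 2 lower at an unadjusted p under 0.05 by either tool. All 15 tested genes of other fibril and matrix proteins were higher in LUM/POSTN cells than in GCG cells, and 9 of them in FABP7 cells. Of 21 tested genes for collagen biosynthesis and crosslinking, 11 were higher and 1 lower in LUM/POSTN cells, against 3 higher and 5 lower in FABP7 cells and 1 higher and 3 lower in TPH1 cells, each against GCG cells. The FABP7 and TPH1 counts of this list are small and mostly near the shares over all genes. PCOLCE, which speeds the trimming of procollagen, averaged 285 ± 89.5 CPM in LUM/POSTN cells and 3.83 ± 0.585 CPM in GCG cells (log2 difference 5.95 ± 0.25, edgeR adjusted p = 1.95e-09). SERPINH1, the collagen chaperone HSP47, averaged 218 ± 61.9 CPM in LUM/POSTN cells and 7.41 ± 1.10 CPM in GCG cells (4.58 ± 0.30, edgeR adjusted p = 8.8e-08). The crosslinking enzyme LOXL4 was the 1 gene of this list that was lower, at 0.621 ± 1.08 CPM in LUM/POSTN cells and 53.5 ± 12.2 CPM in GCG cells (-5.68 ± 0.48, edgeR adjusted p = 7.71e-07), and it also belongs to the alpha cell marker list.

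SPARC, a collagen-binding protein of basement membranes, averaged 639 ± 115 CPM in LUM/POSTN cells and 0.805 ± 1.09 CPM in GCG cells (log2 difference 9.73 ± 0.45, edgeR adjusted p = 3.86e-09). In FABP7 cells it averaged 366 ± 186 CPM (8.67 ± 0.46 against GCG cells, edgeR adjusted p = 2.86e-08). Of the 5 tested collagen receptors, MRC2, which takes up collagen, and DDR2, a kinase for fibrillar collagen, were higher in LUM/POSTN cells, while DDR1 and ITGB1 were lower. DDR2 averaged 71.0 ± 16.3 CPM in LUM/POSTN cells and 0.744 ± 0.231 CPM in GCG cells (6.39 ± 0.56, edgeR adjusted p = 1.21e-06). ITGB1, the shared chain of the collagen-binding integrins, averaged 466 ± 18.9 CPM in LUM/POSTN cells and 598 ± 80.6 CPM in GCG cells (-0.58 ± 0.17, edgeR adjusted p = 0.00987). Without replicate 3 neither DDR1 nor ITGB1 was called, at -0.75 and -0.47, and without replicate 1 DDR1 was not, at -0.81. The ITGB1 call also ended without TMM factors, at -0.35 (edgeR adjusted p = 0.0971). In TPH1 cells ITGB1 averaged 262 ± 22.3 CPM (-1.74 ± 0.17 against GCG cells, edgeR adjusted p = 2.6e-05). Of the 3 genes higher in TPH1 cells, VCAN, a large matrix proteoglycan, averaged 162 ± 43.0 CPM in TPH1 cells and 36.3 ± 4.87 CPM in GCG cells (1.57 ± 0.30, edgeR adjusted p = 0.0037), and its adjusted p was 0.0813 without replicate 1. The others were EFEMP1, an elastic fibre protein, and PLOD2, which hydroxylates collagen lysines. EFEMP1 had 0, 6 and 0 UMIs in TPH1 cells, so its call rests on replicate 2. The call ended without replicate 3, by DESeq2, with overlapping cells kept and at 3 UMIs of the defining genes or more. It also ended at a 30% mitochondrial limit and with the FABP7 sum of 4 cells included. Without replicate 2 the log2 difference was -1.93, from TPH1 sums of 0 UMIs, so the sign cannot show a lower level. PLOD2 was not called without any 1 of the 3 libraries.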

How the data were processed

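UMI counts per gene and barcode were deposited by the authors, 1 matrix per library, as raw counts with no normalization; per the submitters' processing notes they were made with Cell Ranger 4.0.0 on GRCh38, and per the labels' protocols from 10x Genomics 3′ v3 libraries. No source used here gives the strand and intron settings. A barcode stayed in with 1000 detected genes or more and 20% mitochondrial UMIs or less. Doublets stayed in; Scrublet (scanpy 1.11.5), run per library, marked 18, 11 and 18 kept cells. Counts were summed per library and cell group and scaled to CPM. Sums of fewer than 5 cells were left out of fits, which left 11 of the 12 sums planned. edgeR 4.0.16 (R 4.3.3) fitted them together with TMM factors, filterByExpr and the library as a block, since the sums of a library come from the same capture. The 5 defining genes stayed in totals and out of tests. The SE was taken as |log2 fold change| over the root of F. Fits were tested on simulated data.

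Named members are those with a mean of at least 100 CPM in a cell group and the 3 highest of each class in each group; up to 4 partner genes per list could be named. Members, lists, cell definitions and alternatives were chosen with earlier results of these data known. Alternatives were DESeq2 1.42.0, no filter, no TMM factors, no block, each library left out, only the groups compared, other cell definitions and limits, and thinning. Promoter sequences came from RefSeq tables, which held 32 of the 44 members. A group without UMIs of a gene was bounded by a floor of 3 counts. Python 3.11.15 was used.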

Additional observations from a re-analysis of the deposited data

Results flagged for a closer look

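Collagen was also present in barcodes outside the comparisons. Kept cells that met none of the 4 definitions held 236, 208 and 415 CPM of collagen in replicates 1, 2 and 3, above the 181, 176 and 184 CPM of GCG cells in each library. Barcodes over the mitochondrial limit held 295, 178 and 382 CPM. Barcodes under the gene minimum held 191, 45.8 and 266 CPM. In these sets the values are above what a count of 0 allows, and their sources were not tested. Groups of 3 libraries are too small for a check of single outlying values.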

How the results depend on the processing

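Of 876 log2 fold changes of named members recomputed under the alternatives, 832 kept their side of the threshold, 35 lost the call and 7 gained it. The other 2 changed sign and were called in at least 1 of the fits compared. A change of sign between fits that both made no call counts among the 832. With a library left out in turn, COL3A1 and COL21A1 in FABP7 against GCG cells ran between -5.42 and 3.28 and between -1.65 and 4.36. Both were below 0 without replicate 3, where the FABP7 sum left held 0 UMIs of either gene, so the sign cannot show a lower level. Among partner genes MMP14 in FABP7 cells ran between -0.35, without replicate 3, and 6.64, against GCG cells. EFEMP1 in TPH1 cells ran between -1.93, without replicate 2, and 6.99, also against GCG cells. Both negative values came from FABP7 or TPH1 sums with 0 UMIs of the gene, so here too the sign cannot show a lower level. Leaving out a library in turn gave 6 to 16 members higher and 0 to 1 lower in FABP7 against GCG cells, 1 to 3 lower in TPH1 against GCG cells and 6 to 13 higher in LUM/POSTN against FABP7 cells. Thinned to 5000 UMIs, which leaves fewer cells and counts, 8 members were higher in FABP7 against GCG cells, 1 was lower in TPH1 against GCG cells and 6 were higher in LUM/POSTN against FABP7 cells. Without TMM factors 1 was lower in TPH1 against GCG cells. Without the replicate block the counts higher were 23, 17, 6 and 13 in the order LUM/POSTN, FABP7 and TPH1 against GCG cells and LUM/POSTN against FABP7 cells, so the block, which pairs sums of the same library, changed no count by over 1.5 times. DESeq2 gave 23, 16, 6 and 13. No member was lower in LUM/POSTN than in FABP7 cells under any alternative.

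For partner genes, the count in LUM/POSTN against GCG cells was 23 higher when thinned, and lower in 3 by DESeq2, 2 without TMM factors, 2 when thinned, 3 with the FABP7 sum of 4 cells included (chosen after seeing the data) and 1 to 5 with a library left out. In FABP7 against GCG cells it was 9 higher when thinned and 13 to 21 with a library left out, and 5 lower without TMM factors, at a 30% mitochondrial limit or when thinned and 3 to 9 with a library left out. In TPH1 against GCG cells it was 6 higher by DESeq2, 5 with no filter, 11 without TMM factors, 5 with only these groups fitted, 1 at 3 UMIs or thinned and 1 to 2 with a library left out. The count lower there was 15 with no filter, 14 with only these groups fitted, 12 with overlapping cells kept and 3 without TMM factors, at the 30% limit, thinned or with the added sum. In LUM/POSTN against FABP7 cells it was 35 higher with no filter, 11 thinned and 10 to 12 or 22 with a library left out. The causes of these shifts were not tested.

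Class levels moved by over 1 SD in a few cases. With overlapping cells kept, LUM/POSTN cells held 3406 CPM of fibrillar, 268 of basement membrane and 963 of other chains. Requiring 3 UMIs gave FABP7 cells 491 CPM of fibrillar and 449 of other chains. With GCG out of the total, GCG cells held 86.2 CPM of fibrillar and 107 of other chains. Other chains in GCG cells, whose SD was 0.0562 CPM, were 91.9 with overlapping cells kept, 91.3 at 3 UMIs or without Scrublet doublets, 89.6 at the 30% limit and 92.2 as a mean over cells. Depth limits low members: 3 UMIs in a library came to 13.7, 16.4 and 2.80 CPM in LUM/POSTN cells, 6.86, 40.4 and 7.80 CPM in FABP7 cells, 8.70, 14.0 and 4.61 CPM in TPH1 cells and 0.204, 0.162 and 0.310 CPM in GCG cells.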

Other observations

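Some chains were too low to be tested. COL15A1, a proteoglycan near basement membranes, had 17 UMIs in LUM/POSTN cells, at 4.56, 54.6 and 5.59 CPM, 1 UMI in FABP7 cells and none in TPH1 or GCG cells. COL5A3, a fibril chain, had 10 UMIs in LUM/POSTN cells, 7 in FABP7 cells and none in TPH1 or GCG cells, at means of 10.7 and 13.2 CPM in the LUM/POSTN and FABP7 groups. COL9A1, a cartilage-fibril chain, had 12 UMIs in LUM/POSTN cells, 4 in FABP7 cells, 1 in TPH1 cells and none in GCG cells. COL11A2, a partner of COL11A1 in type XI collagen, had 1 UMI in LUM/POSTN cells and 27 in GCG cells, and reached at most 1.13 CPM in a library of these groups. These were chosen after their values were seen, and rest on few UMIs.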
